A study of Mus musculus with 8 samples.

Results

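Deoxynucleoside triphosphates (dNTPs) are the building blocks of DNA, and the 9 genes described here make, salvage or break them down in mouse MLO-Y4 cells: Rrm1, Rrm2, Rrm2b, Tyms, Tk1, Dut, Dck, Dctd and Samhd1. They were taken by name from the deposited table of 55359 gene identifiers, each matched 1 identifier, and all 9 passed the filter on low counts that left 15164 tested genes. MLO-Y4 is an osteocyte-like line, labelled wild type, that was derived from a mouse carrying the SV40 large T antigen under the osteocalcin promoter. That antigen is known to bind the retinoblastoma protein and p53. All libraries share this origin, and whether the antigen was expressed in them was not measured. The study compared 4 libraries from irradiated cells with 4 libraries from non-irradiated cells. Irradiated cells received 6 J/cm2 from a pulsed Er:YAG laser (2940 nm) over 1 min, with the emitter 25 cm above the bottom of a 35-mm dish and the medium taken off beforehand. Whether the medium of the non-irradiated dishes was also taken off is not stated. Both groups were seeded 72 h earlier on collagen-coated plastic in medium with 5% fetal bovine and 5% bovine calf serum, and RNA was taken 6 h after the exposure.

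Ribonucleotide reductase makes deoxyribonucleotides from ribonucleotides and is the rate-limiting step of dNTP supply. Its large subunit (Rrm1) pairs with a small subunit, either Rrm2, which dividing cells make in S phase and destroy in mitosis, or Rrm2b, which p53 induces and which supplies dNTPs outside S phase. Thymidylate comes from dUMP through thymidylate synthase (Tyms) or from thymidine through thymidine kinase 1 (Tk1). The deaminase encoded by Dctd and the dUTPase encoded by Dut both deliver dUMP, Dck starts deoxycytidine salvage, and SAMHD1 splits dNTPs back to nucleosides.

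The regions upstream of the reductase subunit genes Rrm2 and Rrm1 are shown because the RNAs of these partner proteins diverged after irradiation. They come from the RefSeq promoter table (GRCm38.p6), which holds 8 of the 9 genes; Rrm2b has no entry there. The Rrm2 region (chr12:24708004-24708240, plus strand, 237 bases) and the Rrm1 region (chr7:102441445-102441694, plus strand, 250 bases) stop before the RefSeq start. They also stop before any annotated transcript of the gene that starts inside the window. Transcripts that start further upstream were not looked for. Capitals mark matches, on either strand, to an E2F core, which was searched as TTCCCGC and as its variants that read TTCGCGC, then also TTGGCGC and lastly also TTGCCGC, or to the box bound by NF-Y, searched as CCAAT; these motifs do not overlap each other here.
Rrm2: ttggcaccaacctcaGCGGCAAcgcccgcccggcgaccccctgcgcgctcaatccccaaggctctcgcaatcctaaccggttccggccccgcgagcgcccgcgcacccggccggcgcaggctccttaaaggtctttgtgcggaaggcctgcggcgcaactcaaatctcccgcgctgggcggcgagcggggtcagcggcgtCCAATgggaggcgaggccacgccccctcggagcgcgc
Rrm1: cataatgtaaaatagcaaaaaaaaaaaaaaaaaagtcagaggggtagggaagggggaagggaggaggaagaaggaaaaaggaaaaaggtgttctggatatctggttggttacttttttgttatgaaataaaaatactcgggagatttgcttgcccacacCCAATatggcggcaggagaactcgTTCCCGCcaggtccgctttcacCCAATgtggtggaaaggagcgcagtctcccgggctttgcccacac
Counting back from the RefSeq start, the NF-Y box of Rrm2 began 50 bases before it and the E2F core match 235 bases before it. In Rrm1 the NF-Y boxes began 91 and 45 bases before the start and the E2F core match 67 bases before it. Of all 32851 windows of 250 bases in the table, 33.8% held an NF-Y box and 7.89% an E2F core. Rrm1 and Rrm2 were the only 2 of the 8 genes whose windows held an E2F core match. Neither held a CHR element, searched as TTTGAA, which occurred in 16% of windows on either strand. Neither held a TATA-like box, searched as TATAAA and also in the form TTTAAA (22.1% of windows). The same was true of an AP-1 site, searched as TGACTCA and also in the form TGAGTCA (4.46%), and of an EGR site, searched as GCGGGGGCG and also in the form GCGTGGGCG (3.06%). A match or its absence describes these letters and says nothing about binding.

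Library totals ran from 43786209 to 51734166 counts, and TMM scaling factors from 0.989 to 1.01. In the table's own column numbers, irradiated libraries are L5 to L8 and non-irradiated libraries C5 to C8. The labels do not say whether the 4 libraries of a group came from separate cultures, so p-values measure the spread between these libraries, which may be technical. As a check of the label, the osteocyte genes Pdpn, Gja1, Cd44 and Phex were expressed. Dmp1 had 61 counts over the irradiated and 21 over the non-irradiated libraries. Bglap, the osteocalcin gene, had 90 over the irradiated and 73 over the non-irradiated libraries. Sost, Mepe and Fgf23 had 0 in every library. Of the 7 osteocyte markers tested, 4 were higher (log2 fold change 0.35 for Gja1, 0.32 for Pdpn, 0.30 for Alpl and 0.22 for Cd44) and 1 lower (-0.16 for Capg). Called were thus 71.4% of them, against 15% of all tested genes, by the test described below. Of 8 macrophage markers the summed level was 48.3 to 50.9 CPM in irradiated and 30.6 to 35.4 CPM in non-irradiated libraries, nearly all from Csf1r (log2 fold change 0.88, called), Cd14 (0.49, called) and Cd68 (not called), while Ptprc, Adgre1, Itgam and Tyrobp had 0 counts throughout; the part of these markers in the results was not tested. Endothelial, epithelial and adipocyte markers each summed to under 1 CPM in every library.

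Of the 9 genes only Rrm2 passed the test: it rose 1.37-fold, and the other 8 did not pass. The test was edgeR's quasi-likelihood test with Benjamini-Hochberg adjustment over all tested genes and a threshold of 0.05. Over all tested genes 8.22% were higher and 6.75% lower by that rule (15% in either direction), so 1 called gene in 9 is close to the background. The median log2 fold change of the 9 genes was -0.039, against -0.0065 over all tested genes. Levels are CPM, counts scaled by TMM to a common library total, and a positive log2 fold change means higher in irradiated cells.

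Rrm2 (ENSMUSG00000020649.12), the S-phase small subunit of the reductase, stood at 987.0, 910.4, 940.9 and 1001 CPM in irradiated libraries L5 to L8, against 702.3, 708.4, 687.1 and 708.3 CPM in non-irradiated libraries C5 to C8. The lowest irradiated library lay well above the highest non-irradiated one, and the non-irradiated libraries lay close together. Irradiated libraries lay above all non-irradiated ones in 9.76% of all tested genes. The means were 959.9 ± 41.9 CPM in irradiated and 701.5 ± 10.0 CPM in non-irradiated cells (SD, n = 4 each), a log2 fold change of 0.45 (SE 0.031, 95% interval 0.39 to 0.52, edgeR adjusted p = 4.2e-09). Its p ranked at place 24 of the 15164 tested genes. Of the 1247 genes called higher, 233 had a log2 fold change at or above that of Rrm2, with Rrm2 itself counted. Rrm2 was also abundant, at place 110 by mean CPM. The call held in each of the 17 alternative analyses, with log2 fold changes from 0.43 to 0.48. In bulk RNA a larger share of cells that express Rrm2 and more Rrm2 RNA per cell cannot be told apart.

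**Figure D1:**
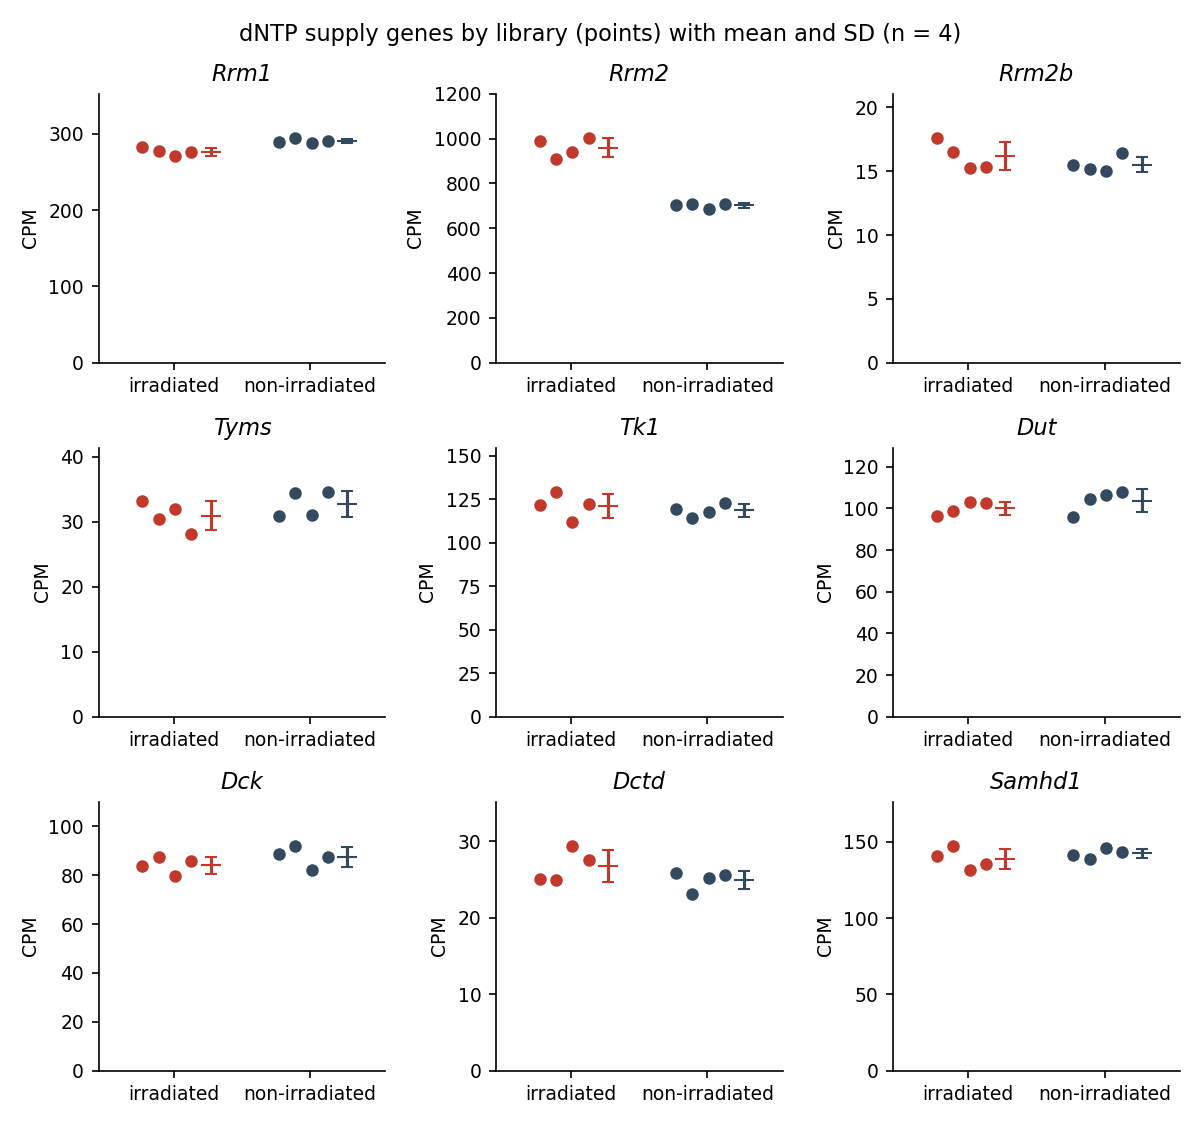
CPM of the 9 genes in each library (points), with mean and SD beside them (n = 4 per group); each vertical axis starts at 0. The irradiated libraries of Rrm2 sit between 910.4 and 1001 CPM, above all non-irradiated ones, and the points of the other genes lie at similar heights in both groups.

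Rrm1 (ENSMUSG00000030978.11), the large subunit, gave 283.2, 277.2, 270.6 and 276.1 CPM in L5 to L8, against 289.7, 294.1, 288.1 and 290.9 CPM in C5 to C8. Every irradiated library was below every non-irradiated one, a pattern seen with irradiated libraries lower in 8.78% of all tested genes. The difference was small, with a log2 fold change of -0.071 (SE 0.029, 95% interval -0.13 to -0.0099), and did not pass the test (edgeR adjusted p = 0.115). With library totals alone as the scale it did pass (log2 fold change -0.093, adjusted p = 0.0329).

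Rrm2b (ENSMUSG00000022292.17), the p53-inducible small subunit, was scarce and gave 17.6, 16.5, 15.3 and 15.3 CPM in L5 to L8, against 15.5, 15.2, 15.01 and 16.4 CPM in C5 to C8. The groups overlapped. Its log2 fold change was 0.059 with an interval of -0.11 to 0.23 (edgeR adjusted p = 0.716), so that changes between 0.925-fold and 1.17-fold lie within the interval. An antisense gene, Gm49085, overlaps 734 bases of Rrm2b exons and drew 38 counts over the irradiated and 54 over the non-irradiated libraries; whether counting used strand is not stated.

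Because both members of a ratio are counted in the same library, the balance between the reductase subunits does not depend on how libraries are scaled. The log2 ratio of Rrm2 to Rrm1 counts was 1.80, 1.72, 1.80 and 1.86 in L5 to L8, against 1.28, 1.27, 1.25 and 1.28 in C5 to C8. It was higher in every irradiated library, by 0.52 on the log2 scale or 1.44-fold (exact two-sided permutation test, p = 0.0286, adjusted over 5 ratios 0.0476). The smallest p that 4 against 4 libraries allow is 0.0286.

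The log2 ratio of Rrm2b to Rrm2 was -5.81, -5.78, -5.95 and -6.03 in L5 to L8, against -5.50, -5.55, -5.52 and -5.43 in C5 to C8. It was lower in every irradiated library, by -0.39 on the log2 scale (exact permutation p = 0.0286, adjusted 0.0476). The log2 ratio of Samhd1, the dNTP hydrolase, to Rrm2 was -2.81, -2.63, -2.84 and -2.89 in L5 to L8, against -2.31, -2.35, -2.23 and -2.30 in C5 to C8. Here too the groups did not overlap, with a difference of -0.49 (exact permutation p = 0.0286, adjusted 0.0476). These 3 ratios all contain Rrm2 and are not separate findings. The permutation test's adjusted p of 0.0476 came under the threshold only because all 3 reached the smallest possible p together.

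**Figure D2:**
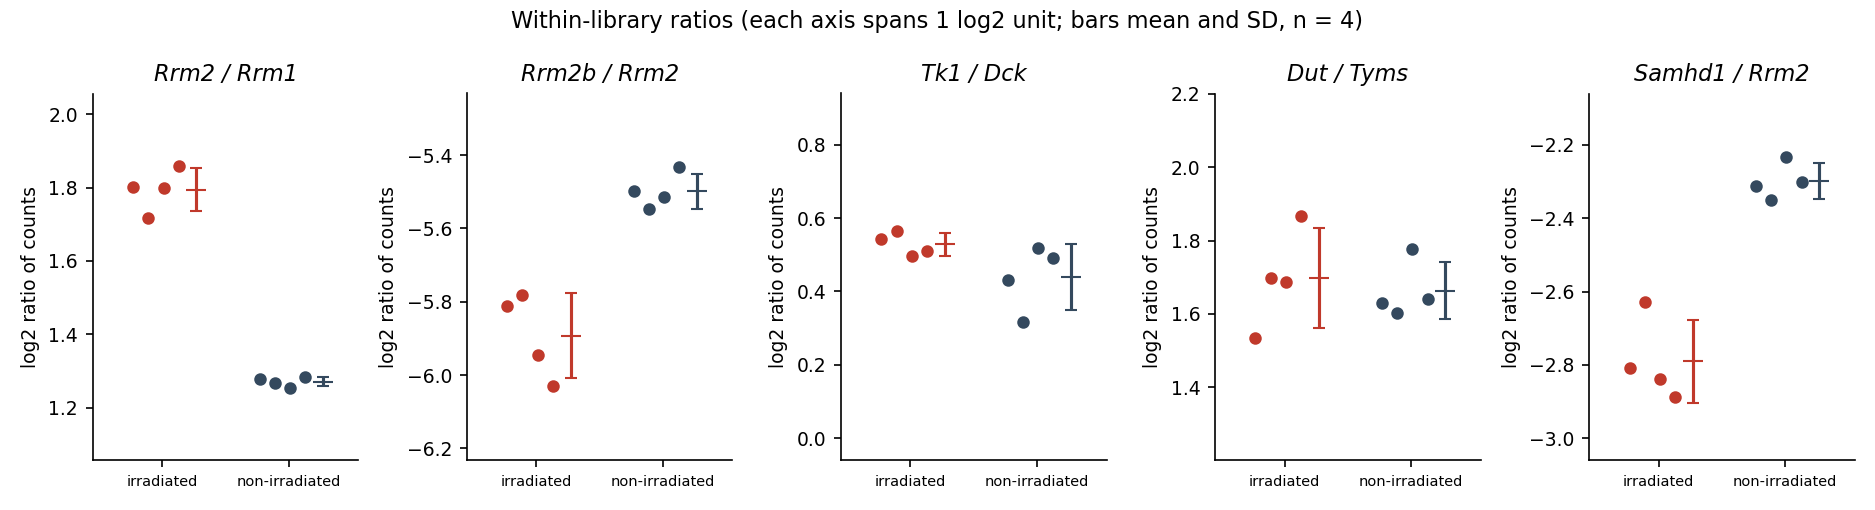
Log2 ratio of counts of a pair of genes within each library (points), with mean and SD (n = 4 per group); every vertical axis spans 1 log2 unit. The groups separate in the 3 ratios that contain Rrm2, such as Rrm2 over Rrm1 (means 1.79 in irradiated and 1.27 in non-irradiated libraries), and overlap for Tk1 over Dck and for Dut over Tyms.

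The genes of thymidylate supply showed no change past the test. Tyms (ENSMUSG00000025747.13), which methylates dUMP to dTMP, gave 33.2, 30.4, 32 and 28.1 CPM in L5 to L8, against 31.0, 34.5, 31.1 and 34.5 CPM in C5 to C8. Tk1 (ENSMUSG00000025574.14), the cytosolic kinase that like Rrm2 peaks in S phase, gave 121.7, 129.0, 112.2 and 122.1 CPM in L5 to L8, against 119.7, 114.3, 117.5 and 123.1 CPM in C5 to C8. Dut (ENSMUSG00000027203.16), whose product keeps uracil out of DNA, gave 96.2, 98.6, 103.0 and 102.4 CPM in L5 to L8, against 96.0, 104.7, 106.6 and 107.7 CPM in C5 to C8. In all 3 genes the groups overlapped. Log2 fold changes were -0.085 for Tyms (interval -0.23 to 0.056), 0.032 for Tk1 (-0.058 to 0.12) and -0.052 for Dut (-0.14 to 0.038), with edgeR adjusted p = 0.462, 0.707 and 0.487. The interval of Tk1 reaches at most 1.09-fold, below the 1.31-fold lower bound of Rrm2. Tk1 shares 83 exon bases with Afmid on the opposite strand.

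The log2 ratio of Dut to Tyms averaged 1.70 ± 0.137 in irradiated and 1.66 ± 0.0782 in non-irradiated libraries (SD, n = 4 each; exact permutation p = 0.743, adjusted 0.743). That of Tk1 to Dck, the thymidine and deoxycytidine kinases, averaged 0.53 ± 0.0309 in irradiated and 0.44 ± 0.0898 in non-irradiated libraries (exact permutation p = 0.114, adjusted 0.143). For neither ratio was the difference larger than the spread between libraries by this test. Without C7 the Tk1 to Dck ratio passed, with a difference of 0.12 (exact permutation test, adjusted p = 0.0357). That adjusted p also depends on the ratios with Rrm2 reaching the smallest possible p at the same time.

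The genes of deoxycytidine handling and dNTP breakdown did not pass the test either. Dck (ENSMUSG00000029366.11), which also phosphorylates deoxyadenosine and deoxyguanosine, gave 83.6, 87.3, 79.6 and 85.8 CPM in L5 to L8, against 88.8, 91.8, 82.1 and 87.6 CPM in C5 to C8. Dctd (ENSMUSG00000031562.16), which turns dCMP into dUMP, gave 25.0, 25.0, 29.3 and 27.6 CPM in L5 to L8, against 25.9, 23.2, 25.2 and 25.6 CPM in C5 to C8. Samhd1 (ENSMUSG00000027639.17) gave 140.8, 147.1, 131.6 and 135.3 CPM in L5 to L8, against 141.3, 138.8, 146.1 and 143.6 CPM in C5 to C8. The groups overlapped in each. Log2 fold changes were -0.059 for Dck (interval -0.15 to 0.036), 0.10 for Dctd (-0.049 to 0.25) and -0.039 for Samhd1 (-0.12 to 0.043), with edgeR adjusted p = 0.445, 0.404 and 0.586. Dctd has the widest of these intervals, up to 1.19-fold, at a mean of 1238 counts per library against 39860 for Rrm2.

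**Figure D3:**
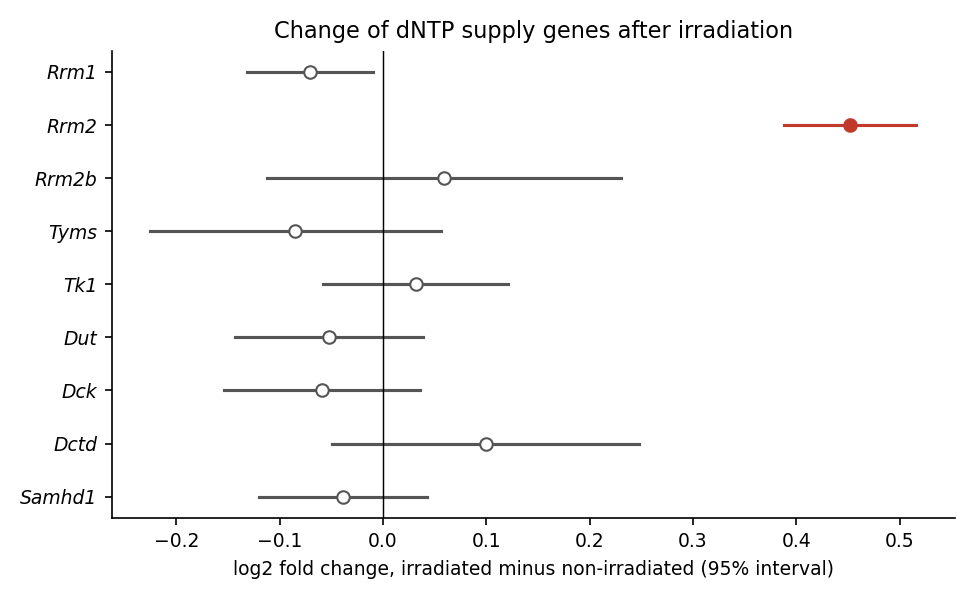
Log2 fold change (irradiated minus non-irradiated) of each gene with its unadjusted 95% interval; filled symbols passed the edgeR test at an adjusted p of 0.05. Rrm2 stands at 0.45 and its interval lies clear of those of the other 8 genes, which all lie between -0.23 and 0.25.

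Divided by the length of the transcript with the longest coding sequence, levels in CPM per kilobase followed the same order in both groups. Rrm2 came first at 437.7 ± 19.1 in irradiated and 319.9 ± 4.57 in non-irradiated cells (SD, n = 4 each). Dut followed at 98.1 in irradiated and 101.7 in non-irradiated cells. Tk1 had 84.2 in irradiated and 82.4 in non-irradiated cells, and Rrm1 had 69.2 in irradiated and 72.7 in non-irradiated cells. Samhd1, Dck, Dctd and Tyms followed downwards, and Rrm2b came last at 3.545 ± 0.242 in irradiated and 3.403 ± 0.136 in non-irradiated cells. Within each group the libraries of neighbouring genes in this order did not overlap. The middle of the order depends on the length used: per kilobase of all merged exons, Rrm1 (25.1 in irradiated and 26.4 in non-irradiated cells) came before Tk1 (23.3 in irradiated and 22.8 in non-irradiated cells) and Dck (22.2 in irradiated and 23.2 in non-irradiated cells), while Rrm2, Dut and Rrm2b kept their places.

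**Figure D4:**
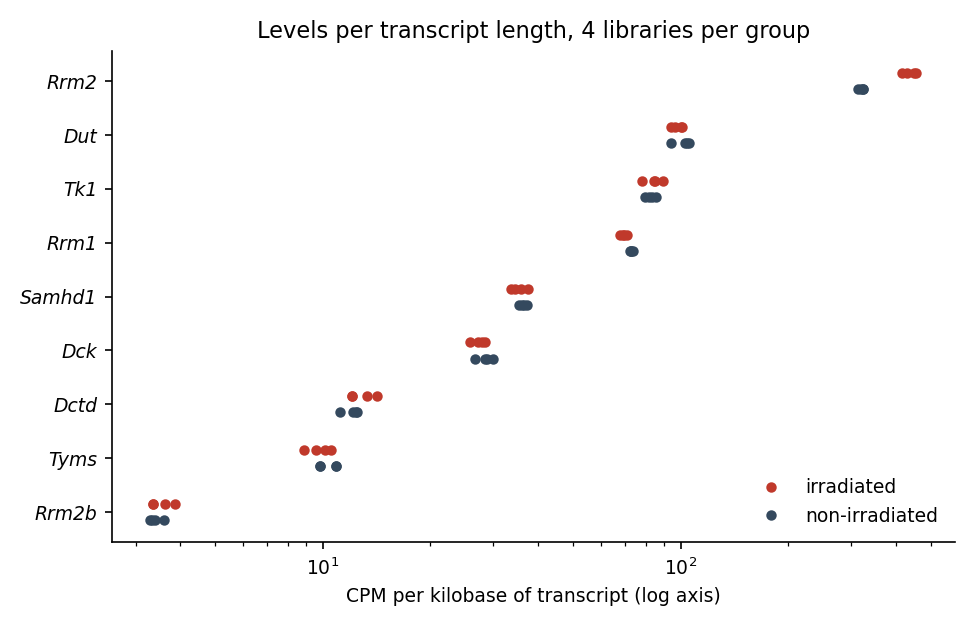
Level of each gene as CPM per kilobase of transcript (log axis), 1 point per library, irradiated above non-irradiated. Rrm2 lies highest in both groups and Rrm2b lowest, with non-irradiated means of 319.9 and 3.403.

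Copies elsewhere in the genome drew almost no counts. Among GENCODE M21 transcripts, processed pseudogenes with at least 90% identity over at least 200 bases of coding sequence exist for Rrm2 (Gm48455), Rrm2b (Gm8616), Tk1 (Gm5742) and Tyms (Tyms-ps). Gm48455 had 3 counts over the irradiated and 0 over the non-irradiated libraries, and Gm8616 had 7 over the irradiated and 2 over the non-irradiated libraries. Rrm2 and Rrm2b share no such stretch with each other.

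The genes whose centred log2 CPM profile over the 8 libraries was nearest to that of Rrm2, among the 9552 compared (mean CPM 10 or higher), were Ap1s2, Csf1 and Gm12715. Mean absolute differences were 0.024, 0.028 and 0.029 on the log2 scale. Csf1, the growth factor of macrophages and osteoclast precursors, stood at 3023, 2876, 3061 and 3175 CPM in L5 to L8, against 2227, 2368, 2202 and 2198 CPM in C5 to C8. Ap1s2, an adaptor subunit of clathrin-coated vesicles, averaged 35.6 CPM in irradiated and 26.5 CPM in non-irradiated cells. Gm12715 is annotated as a processed pseudogene. None of the 40 replication genes was among the 3. This follows from their log2 fold changes, the highest of which was 0.13, and is not a separate finding.

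Genes of DNA replication, which like Rrm2 are expressed around S phase, did not follow it. Of 40 measured, 1 was higher, 3 were lower and 36 did not pass the test, and the median log2 fold change was -0.051. Called were thus 10% of the list, against 15% of all tested genes. Those lower were Ccna2 (cyclin A2, log2 fold change -0.17), Mcm6 (a helicase subunit, -0.14) and Lig1 (DNA ligase 1, -0.12), with edgeR adjusted p = 0.00233, 0.00401 and 0.0281. Ccne1, cyclin E1, was the one higher (0.13, adjusted p = 0.049), a call that ended without any library other than C6 and with library totals alone (adjusted p = 0.0979). The call of Lig1 ended without C5, C7, C8, L5, L6 or L8 (adjusted p up to 0.0982), and 2 genes of the list were called without C5, C7, L6 or L8.

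The summed level of these 40 genes ran from 4129 to 4211 CPM in irradiated and from 4285 to 4368 CPM in non-irradiated libraries. The log2 ratio of Rrm2 counts to this sum was -2.07, -2.19, -2.16 and -2.07 in L5 to L8, against -2.64, -2.61, -2.64 and -2.62 in C5 to C8. Relative to the replication genes Rrm2 was thus 0.50 higher on the log2 scale in irradiated cells, with no overlap between the groups. This ratio was formed after the values were seen and was not tested.

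Several mitotic genes were lower. Of 22 measured, 8 were lower, 0 higher and 14 not past the test, all 22 log2 fold changes were below 0, and their median was -0.099. Called lower were thus 36.4% of the list, against 6.75% of all tested genes. Nusap1, a spindle protein gene, averaged 44.4 ± 0.826 CPM in irradiated and 55.2 ± 3.26 CPM in non-irradiated cells (SD, n = 4 each; log2 fold change -0.31, edgeR adjusted p = 0.000288). Cdc20, an activator of the anaphase-promoting complex, gave -0.19 (adjusted p = 0.000523) and Cenpf, a kinetochore gene, -0.18 (adjusted p = 0.00246). Kif23, a motor of cytokinesis, gave -0.17 (adjusted p = 0.0295) and lost its call without C5, C7, C8, L7 or L8, where its adjusted p reached 0.13. The count of lower genes was 5 without C5 or L7. The summed level of the list was 3057 to 3147 CPM in irradiated and 3294 to 3380 CPM in non-irradiated libraries. Its part in the Rrm2 result was not tested.

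The E2F, pocket-protein and turnover genes showed 3 calls in 16 genes (18.8%), close to the 15% called over all tested genes. Of the 16, 1 was higher, 2 were lower and 13 did not pass the test (median log2 fold change -0.023). Whether each of them regulates Rrm2 in these cells was not tested. Rbl1, the pocket protein p107, averaged 73.5 ± 2.47 CPM in irradiated and 83.6 ± 4.85 CPM in non-irradiated cells (log2 fold change -0.19, edgeR adjusted p = 0.0108), and without C5 its adjusted p was 0.0549. E2f2, an activating E2F, gave -0.32 (adjusted p = 0.0393) and lost its call without C5, C6, L5, L7 or L8 (adjusted p up to 0.119). E2f8, a repressive E2F, gave 0.16 (adjusted p = 0.0405) and lost its call without C5, C7, C8, L5, L6 or L8 (up to 0.133) and with library totals alone (0.0754). The list's count ran from 0 without C5 to 4, and was 1 without L5 or L8. Ccnf, the cyclin F that marks the Rrm2 protein for destruction, chosen after its values were seen, had 77.0 ± 1.605 CPM in irradiated and 82.5 ± 3.17 CPM in non-irradiated cells (log2 fold change -0.099, adjusted p = 0.138).

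Among 20 p53 target genes, the group to which Rrm2b belongs, 6 were lower, 0 higher and 14 not past the test, with a median log2 fold change of -0.12. Called lower were thus 30% of the list, against 6.75% of all tested genes. Trp53inp1, a nuclear stress protein gene, averaged 58.3 ± 4.02 CPM in irradiated and 93.0 ± 5.83 CPM in non-irradiated cells (log2 fold change -0.67, edgeR adjusted p = 4.09e-08). Sesn1, a sestrin gene, gave -0.59 (adjusted p = 0.000142) and Zmat3, an RNA-binding protein gene, -0.22 (adjusted p = 0.000101). Eda2r, a receptor gene, gave -0.27 (edgeR adjusted p = 0.019). The call of Eda2r ended without C5 or L8 (adjusted p up to 0.0964). Cdkn1a (log2 fold change -0.058, edgeR adjusted p = 0.279) and Bax (-0.11, adjusted p = 0.1255) were among the 14 not past the test. These genes were chosen after their values were seen.

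Of 20 interferon response genes, a group in which Samhd1 is often counted, all 20 were lower (median log2 fold change -0.27). Over all tested genes 6.75% were called lower. The largest fall was that of Mx1, an antiviral GTPase (log2 fold change -0.89, edgeR adjusted p = 0.00136), and those of Ifit3 and Zbp1 were -0.77 and -0.43 (adjusted p = 4.43e-11 and 8.73e-06). Cmpk2, a mitochondrial kinase that feeds the dCTP and dTTP pools, averaged 72.0 ± 4.95 CPM in irradiated and 97.3 ± 4.87 CPM in non-irradiated cells (log2 fold change -0.44, adjusted p = 5.81e-06). The interval of Samhd1, -0.12 to 0.043, lies above all 20 estimates, of which the smallest fall was -0.13. It overlaps the intervals of some of these genes, such as Bst2 (-0.20 to -0.061), and not those of others, such as Ifit3 (-0.85 to -0.70). The difference between Samhd1 and these genes was not tested.

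Of 19 genes that complete or undo dNTP synthesis, mostly kinases and nucleotidases, 3 were lower, 0 higher and 16 not past the test. The share called, 15.8%, is close to the 15% over all tested genes. The median log2 fold change was -0.062. Nme4, a mitochondrial nucleoside diphosphate kinase, averaged 9.65 ± 0.909 CPM in irradiated and 12.2 ± 0.494 CPM in non-irradiated cells (log2 fold change -0.33, edgeR adjusted p = 0.026). Its cytosolic relative Nme2 gave -0.10 (adjusted p = 0.022), and Pnp, which splits purine nucleosides, gave -0.15 (adjusted p = 0.0181). Each of these calls ended without some of the libraries. Nme4 lost its call without C7, C8, L5, L6 or L8, Nme2 without C5, C7, C8, L5 or L7 and Pnp without C5, C7, L5, L7 or L8 (the highest adjusted p was 0.0862). The count was 0 without C7 or L5 and 1 without C5, C8, L7 or L8.

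The thioredoxin and glutaredoxin systems, some of whose proteins hand electrons to ribonucleotide reductase, had 1 of 9 genes lower, with a median of 0.024. The share called, 11.1%, compares with 15% of all tested genes. The 1 call was that of Glrx3, for which a part in this electron supply was not tested. Glrx3, a monothiol glutaredoxin, averaged 94.8 ± 1.02 CPM in irradiated and 105.2 ± 2.52 CPM in non-irradiated cells (log2 fold change -0.15, edgeR adjusted p = 0.00918). Without C6 the count was 2. Among 10 genes that clear damaged or non-canonical nucleotides, 0 passed the test. The lowest p values there were those of Nudt1, the oxidised-dNTP hydrolase (log2 fold change -0.22, adjusted p = 0.162), and Dctpp1, a dCTP pyrophosphatase (-0.12, adjusted p = 0.299).

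Changes in precursor pathways were small. Called were 0% of the folate, 25% of the pyrimidine and 20% of the purine genes, against 15% of all tested genes. In the folate and thymidylate cycle 0 of 11 tested genes passed, with a median of 0.054; the lowest p values were those of Fpgs (log2 fold change 0.18, edgeR adjusted p = 0.0582) and Slc19a1 (0.12, adjusted p = 0.121), which retain and import folates. Without C6, C8 or L6 the count was 1, and Fpgs passed without C6 or L6. In pyrimidine synthesis Cad, the enzyme of the first steps, averaged 99.6 ± 2.45 CPM in irradiated and 88.6 ± 2.43 CPM in non-irradiated cells (log2 fold change 0.17, adjusted p = 0.00545). Uck2, a uridine and cytidine kinase, was lower (-0.13, adjusted p = 0.0305), a call that ended without C5, C6, C8, L5, L6 or L7 and left 1 of the 8 genes called. In purine synthesis and salvage 2 of 15 were higher and 1 lower. Impdh1 (0.16, adjusted p = 0.0159) and Gmps (0.13, adjusted p = 0.0146) act in succession towards GMP, and Aprt, which salvages adenine, was lower (-0.17, adjusted p = 0.0234). Impdh1 lost its call without C7 or L8 and Aprt without C5, C7, C8, L5, L7 or L8, and the count was 1 without C7 or L8.

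**Figure D5:**
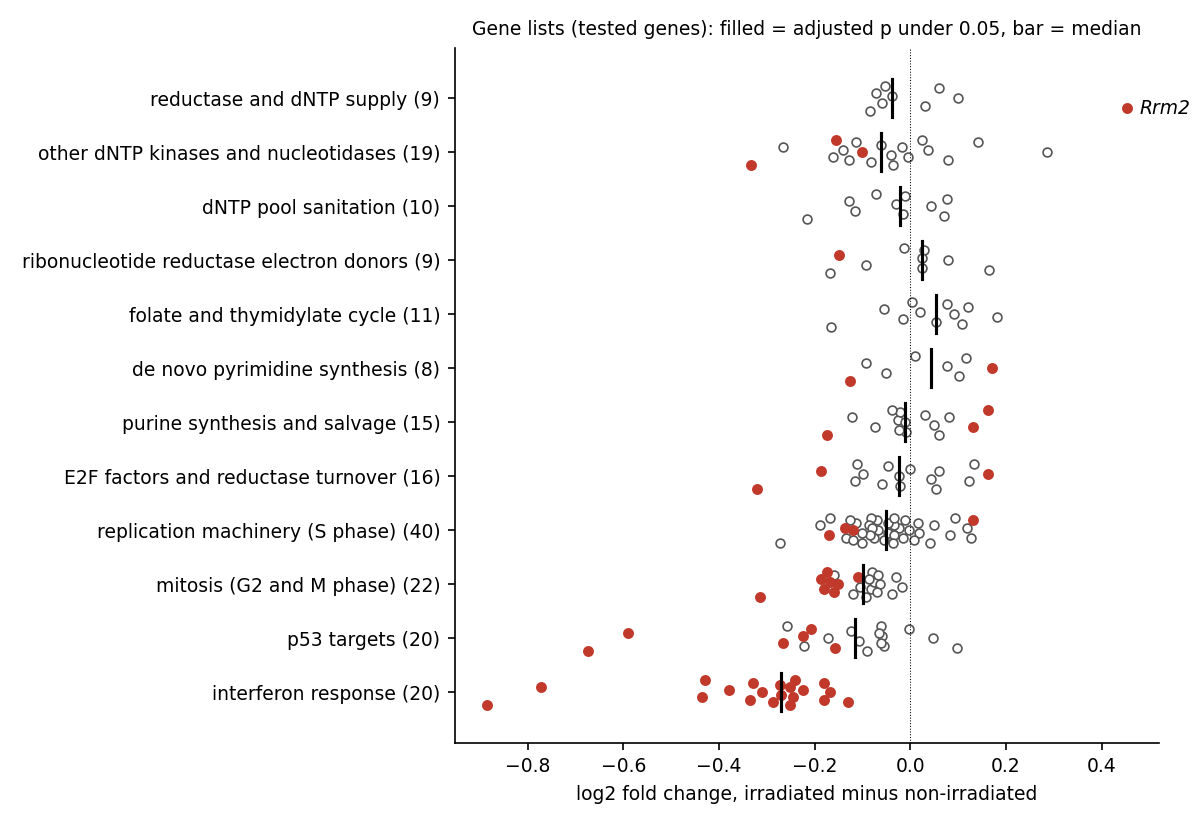
Log2 fold change (irradiated minus non-irradiated) of every tested gene of the dNTP supply list and of 11 related lists, 1 point per gene, with list sizes in brackets; filled points passed the edgeR test and black bars are medians. Rrm2, at 0.45, is the rightmost point of all lists, while all genes of the interferon list (median -0.27) and of the mitosis list lie left of 0, as do 18 of the 20 p53 targets.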

How the data were processed

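Poly(A) RNA of MLO-Y4 cells was sequenced for 4 irradiated and 4 non-irradiated samples, per the labels' protocols. The authors deposited whole-number estimated counts per gene, not normalized, used here without rounding. StringTie 2.1.7 and HISAT2 2.2.1 appear in the submitters' processing notes, next to DESeq2 1.32.0, Trimmomatic 0.39, FastQC 0.11.9 and the genome build GRCm39. Neither the annotation release nor read length or strand setting is given in the sources used here. A value of 4 is more frequent in the table than 3 or 5, so a fragment may add about 4 counts, and counting error is then larger than the counts imply. Columns could be tied to a group by name, not to a single sample.

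Of 55359 identifiers 52083 have a GENCODE M21 (GRCm38) symbol; those without took at most 0.439% of a library. Genes were filtered with filterByExpr (minimum count 10), scaled by TMM and tested with edgeR 4.0.16 in R 4.3.3 (robust glmQLFit on a design with group alone). Adjusted p under 0.05 counted as changed. Log2 ratios used a prior count of 0.5 and an exact permutation test of the group labels (70 arrangements). Intervals are unadjusted 95% intervals. The test was tried on simulated data before use.

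The genes and lists were chosen with earlier results of these data known. Named from each list were all called genes if 5 or fewer, otherwise the 4 that changed most; a list with no call gave its 2 genes of lowest p. Over all tested genes, libraries with the same column number did not deviate together (correlations of deviations from -0.0459 to 0.0014). They were not treated as pairs, although handling in pairs is not excluded. Alternatives were other scalings, filters, DESeq2 1.42.0, limma-voom (limma 3.58.1), counts divided by 4, a block for column number and leaving out each library. Protein sequences were not used here.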

Additional observations from a re-analysis of the deposited data

How the results depend on the processing

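Rrm2 was called higher in all 17 alternatives (log2 fold change 0.43 to 0.48, adjusted p at most 4.61e-06, with the block), and Rrm2b, Tyms, Tk1, Dut, Dck, Dctd and Samhd1 were called in none of them. With library totals alone the number of the 9 genes changed was 2 instead of 1, Rrm1 being the added one, and over all genes 1050 were higher and 1345 lower, against 1247 and 1023 with TMM. Leaving out 1 library at a time, 1672 to 2673 genes changed over all genes, and 1 of the 9 in each case. With a replicate block by column number 1757 genes changed. The Rrm2 to Rrm1, Rrm2b to Rrm2 and Samhd1 to Rrm2 ratios kept their differences (0.52, -0.39 and -0.49). In an exact test that switched the signs of the pair differences, each had adjusted p = 0.208. Since 4 pairs cannot give less than 0.125 before adjustment, that test cannot decide whether the ratios differ. Libraries of equal number showed no shared deviation over the tested genes (each correlation within 0.046 of 0). This does not exclude that they were handled in pairs. The Tk1 to Dck ratio difference ran from 0.048 to 0.12 with 1 library left out and passed in 1 of these cases; the Rrm2 to Rrm1 ratio ran from 0.50 to 0.55, Rrm2b to Rrm2 from -0.43 to -0.35, Samhd1 to Rrm2 from -0.55 to -0.46 and Dut to Tyms from -0.023 to 0.088. Under the block 1 gene of the kinase list, 1 of the pyrimidine list and 2 of the replication list were called. The folate list had 1 gene called, Fpgs, with DESeq2, with a filter at 1 CPM and with counts divided by 4. The E2F list had 1 with limma-voom, and the purine list 5 with library totals alone. The cause of these moves was not tested. At a mean of 761 counts Rrm2b is the least precise gene of the 9.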
